A study of Mus musculus with 16 samples.

Results

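The T cell receptor complex and subset genes are 10 genes listed by symbol: Cd3d, Cd3e and Cd3g of the receptor complex, the coreceptors Cd4 and Cd8a, the costimulatory receptor Cd28, the cytokine receptor Il7r, the kinase Lck, the SLAM family receptor Slamf6 and the nuclear factor Satb1. Of these, 9 were matched to a probe set in the platform annotation, among 19938 genes in all, and each of the 9 had 1 probe set of its own and shared none with another gene. Lck was not analysed here. The levels come from total RNA of whole lungs of C57BL/6 mice, labelled 10 to 12 weeks of age, on 16 Affymetrix whole-transcript arrays. The mice received crystalline silica (CS) or, as controls, phosphate-buffered saline (PBS) through the trachea. At day 2 the groups were BLT1+/+ and BLT1-/- lungs, and at day 60 BLT1+/+KRasLA1 and BLT1-/-KRasLA1 lungs, each with 3 CS lungs and 1 PBS array of RNA pooled from 3 mice. BLT1 is a leukotriene B4 receptor, and KRasLA1 is a latent oncogenic allele, switched on by spontaneous recombination, that gives lung tumors. Every day 60 lung, PBS pools included, carries KRasLA1 and no day 2 lung does, so day and allele cannot be told apart. The labels call the CS lungs biological replicates without numbering animals. The p-values therefore rest on the spread among these 12 lungs, which may be partly technical.

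Markers of lung epithelium (Sftpc, Sftpb, Scgb1a1, Ager and Cldn18) were at 13.26 or above on all 16 arrays, among the brightest genes. Array medians lay between 8.25 and 8.34. Y-linked Eif2s3y set 3 arrays apart. It was at 10.09, with Xist at 6.61, in BLT1+/+KRasLA1 CS replicate 2, and at 9.68 and 9.04, with Xist at 12.32 and 12.16, in the BLT1+/+KRasLA1 and BLT1-/-KRasLA1 PBS pools, against 4.27 to 4.74 on the other 13 arrays. Results of the 9 genes are given without these arrays where leaving one out changed a call. Without 1 pool, a mean over genotypes rests on the other genotype alone, with 3 CS lungs against 1 pool. Both day 60 pools held male RNA, and BLT1+/+KRasLA1 CS replicate 2 was the lone day 60 CS lung with high Eif2s3y. Sex thus largely goes with treatment at day 60, also with 1 pool left out, and their parts cannot be told apart.

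A T cell recognises a peptide on an MHC molecule with an antigen receptor that cannot signal by itself. The CD3 chains, encoded by Cd3d, Cd3e and Cd3g, stand beside the receptor in the membrane and carry the signal inward through tyrosine motifs in their tails. CD4 binds MHC class II and CD8 binds MHC class I, which separates helper from cytotoxic T cells, and CD28 adds the second, costimulatory signal. The lung holds naive, circulating T cells in its blood vessels as well as memory T cells that stay in the tissue. Several of the genes are also used elsewhere: Il7r by innate lymphoid cells, Cd8a by a class of dendritic cells, Slamf6 by B and NK cells, and Satb1 outside the blood. In whole-lung RNA, fewer cells of a type, less RNA per cell and a larger share of RNA from other cells cannot be told apart.

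The CD3 genes lie side by side on chromosome 9 with no other RefSeq gene between them, and their levels followed one another over the groups, so the 250 bases before each start are shown, from RefSeq on GRCm38.p6. Cd3g (minus strand, chr9:44980432-44980681) and Cd3d (plus strand, chr9:44981536-44981785) point away from each other with 1355 bases between their starts. The start of Cd3e (minus strand, chr9:45009612-45009861) lies 27825 bases from that of Cd3d. Capitals mark matches, on either strand, to short motifs named for factor families active in T cells and to the TATA box.
Cd3g: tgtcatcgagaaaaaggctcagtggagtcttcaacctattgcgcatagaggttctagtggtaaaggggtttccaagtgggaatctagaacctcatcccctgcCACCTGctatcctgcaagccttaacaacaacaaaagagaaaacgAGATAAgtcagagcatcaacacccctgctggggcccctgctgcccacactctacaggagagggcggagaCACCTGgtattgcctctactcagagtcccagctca
Cd3d: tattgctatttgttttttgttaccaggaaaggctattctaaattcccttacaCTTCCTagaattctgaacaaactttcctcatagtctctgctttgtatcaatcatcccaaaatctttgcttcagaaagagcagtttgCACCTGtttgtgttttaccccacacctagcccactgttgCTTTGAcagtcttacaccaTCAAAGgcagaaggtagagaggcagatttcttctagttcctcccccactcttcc
Cd3e: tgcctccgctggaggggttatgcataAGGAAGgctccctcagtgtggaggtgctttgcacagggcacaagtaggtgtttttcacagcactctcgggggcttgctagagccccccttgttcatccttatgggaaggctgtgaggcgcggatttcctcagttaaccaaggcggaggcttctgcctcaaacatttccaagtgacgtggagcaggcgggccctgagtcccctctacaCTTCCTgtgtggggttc
The ETS core AGGAAG was matched 2 times before Cd3e and 1 time before Cd3d, and 29.5% of 32851 promoter windows of this length hold it. The TCF and LEF core CTTTGA was matched 2 times before Cd3d (13.8% of windows hold it), and the GATA core AGATAA 1 time before Cd3g (9.99%). The E-box CANCTG was matched 2 times before Cd3g and 1 time before Cd3d, and 44.8% of windows hold it. The RUNX core TGTGGT (14.0% of windows) and the TATA box TATAAA (12.4%) were matched in none of these 3 windows. No match overlapped a match to another motif. A match is a description of letters, not a binding site.

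In the lungs 2 days after silica, 7 of 9 T cell genes had fallen relative to PBS pools, averaged over both BLT1 genotypes, where 4.37% of all genes tested were called lower. All 9 differences were below 0, with a median of -0.52 on the log2 scale against -0.02 over all genes. At day 60, in KRasLA1 lungs, 6 of 9 had risen (3.35% of all genes were called higher), all 9 differences were above 0, and the median was 0.58 against -0.03. Both day 60 pools hold male RNA, which most day 60 CS lungs lack. Called means a Benjamini-Hochberg adjusted p below 0.05 over all 19938 genes in limma, a linear model that shares information on the spread between genes. Values are log2 levels normalized by RMA, so a difference of 1 is a doubling. All 6 CS lungs lay below both pools in 8 of 9 genes at day 2 (10.0% of all genes did), Il7r being the exception, and above both pools in 6 of 9 at day 60 (9.66% did). In the plot of levels by group, the day 2 CS groups had the lowest means and the day 60 CS groups the highest for Cd28 and Slamf6. For Cd3g and Il7r both day 60 pools lay below the mean of either day 2 CS group, and for Cd3e, Cd8a and Satb1 a day 2 pool was the highest of all groups.

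**Figure D1:**
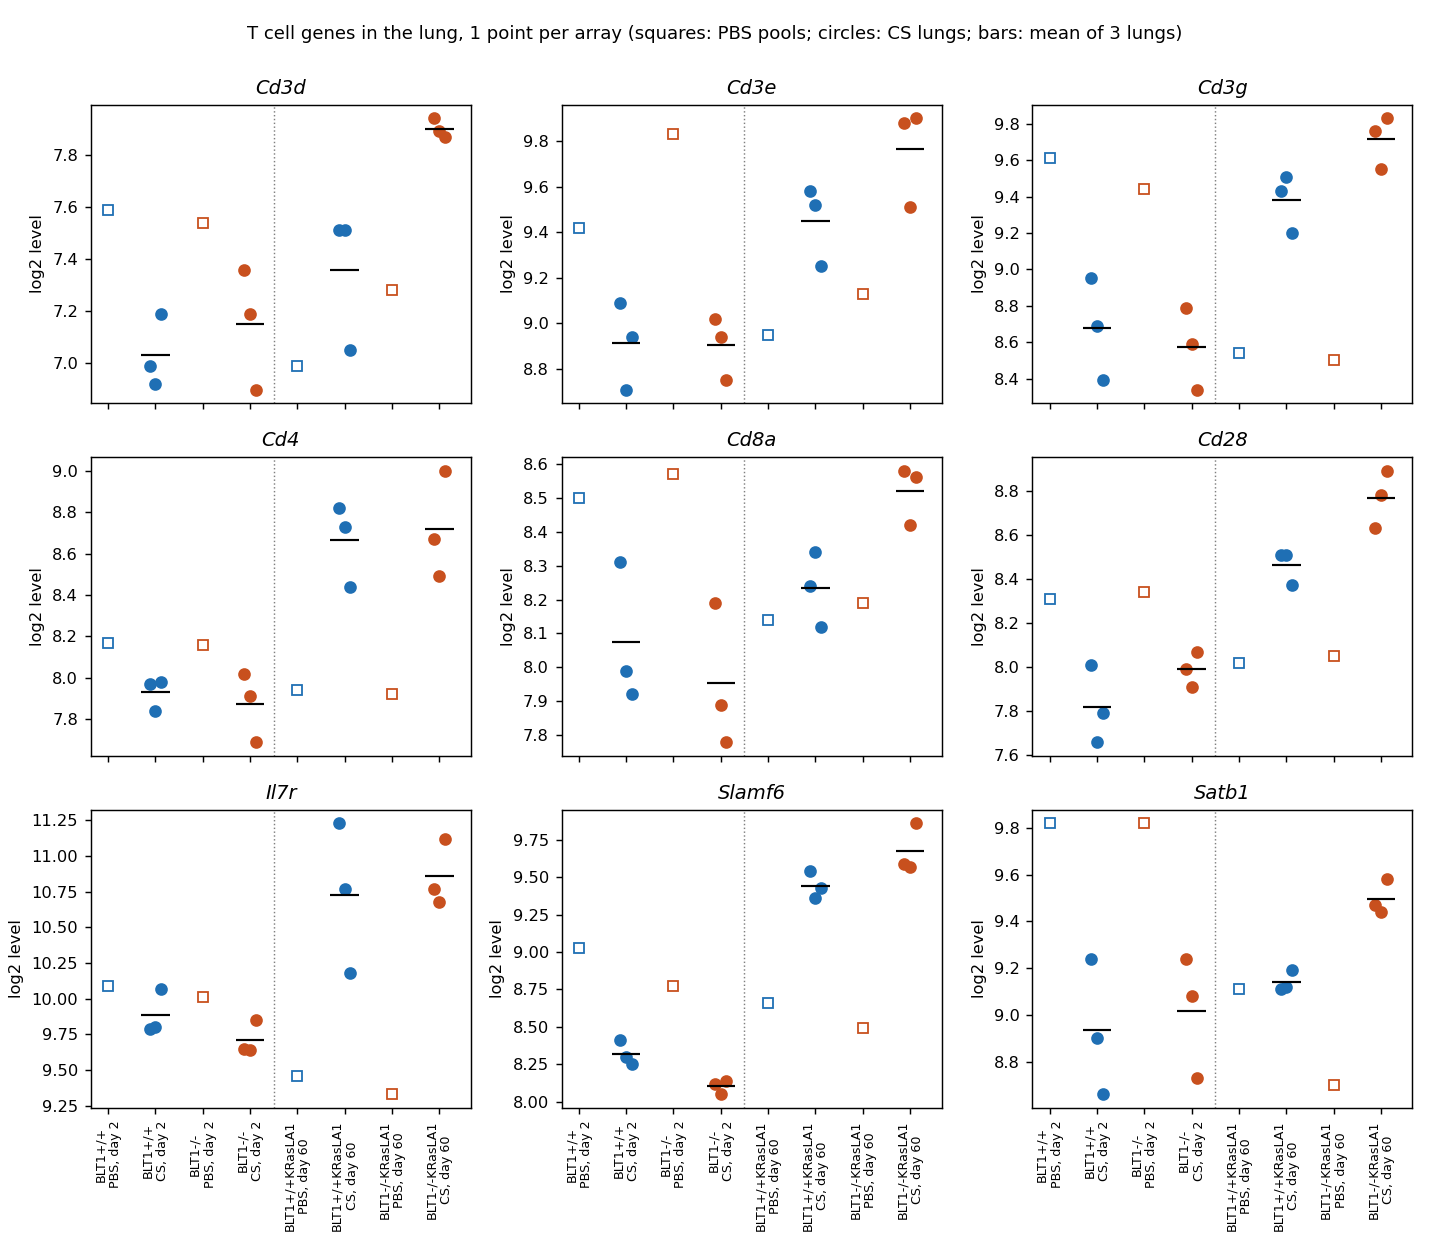
Log2 level of 9 T cell genes on 16 arrays, 1 panel per gene with its own axis, by genotype, treatment and day (blue, BLT1+/+; orange, BLT1-/-; open squares, PBS pools of 3 mice; filled circles, CS lungs; bars, mean of 3 lungs; dotted line, the border between day 2 without and day 60 with KRasLA1). Both day 60 PBS pools, which hold male RNA, lay below both day 2 pools in all 9 genes (17.6% of all genes did). The CS lungs moved down from the pools at day 2 and mostly up from them at day 60.

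Cd3e, the epsilon chain found in every receptor complex, is the gene most often used to mark T cells. At day 2 its level (probe set 10593024) was 9.09, 8.71 and 8.94 in the BLT1+/+ CS lungs against 9.42 in the BLT1+/+ PBS pool, and 9.02, 8.94 and 8.75 in the BLT1-/- CS lungs against 9.83 in their pool. At day 60 it was 9.58, 9.52 and 9.25 in BLT1+/+KRasLA1 CS lungs against 8.95 in the pool, and 9.88, 9.51 and 9.90 in BLT1-/-KRasLA1 CS lungs against 9.13. All 6 CS lungs lay below both pools at day 2 and above both pools at day 60. Cd3e fell by 0.72 ± 0.129 (SE; 6 CS lungs, 2 pools; adjusted p = 0.00341) at day 2 and rose by 0.56 ± 0.129 (adjusted p = 0.0248) at day 60. The day 2 fall was lost without the BLT1-/- pool (-0.50, adjusted p = 0.240). The day 60 rise was lost with quantile normalization (0.53, adjusted p = 0.0535) and without the BLT1-/-KRasLA1 pool (0.50, 0.333), the BLT1+/+KRasLA1 pool (0.63, 0.150), BLT1-/-KRasLA1 CS replicate 3 (0.53, 0.0557), BLT1+/+KRasLA1 CS replicate 1 (0.53, 0.0549) or BLT1+/+KRasLA1 CS replicate 2 (0.55, 0.0512).

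Cd3g encodes the gamma chain, which pairs with the epsilon chain, and had the largest day 2 fall of the 9 genes. Its levels at day 2 (probe set 10593015) were 8.95, 8.69 and 8.39 in BLT1+/+ CS lungs against a pool at 9.61, and 8.79, 8.59 and 8.34 in BLT1-/- CS lungs against 9.44. At day 60 they were 9.43, 9.51 and 9.20 in BLT1+/+KRasLA1 CS lungs against 8.54, and 9.76, 9.55 and 9.83 in BLT1-/-KRasLA1 CS lungs against 8.50. The day 60 pools were thus as low as the day 2 CS lungs, and the 12 CS lungs separated by day without overlap. Cd3g fell by 0.90 ± 0.145 (1.86-fold, adjusted p = 0.00183) at day 2 and rose by 1.03 ± 0.145 (2.04-fold, adjusted p = 0.00136) at day 60. The fall passed without either day 2 pool. The rise did not pass without the BLT1-/-KRasLA1 pool (0.84, adjusted p = 0.0899).

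Cd3d encodes the delta chain, the other partner of epsilon, and was the dimmest of the 9 probe sets relative to all genes, with its mean level at the 25.6th percentile. RMA compresses differences at that end of the scale. At day 2 it was at 6.99, 6.92 and 7.19 in BLT1+/+ CS lungs and 7.59 in their pool, and at 7.36, 7.19 and 6.90 in BLT1-/- CS lungs and 7.54 in theirs. At day 60 it was at 7.51, 7.51 and 7.05 in BLT1+/+KRasLA1 CS lungs (pool 6.99) and at 7.94, 7.89 and 7.87 in BLT1-/-KRasLA1 CS lungs (pool 7.28). The 3 BLT1-/-KRasLA1 lungs were the highest of all 16 arrays, while BLT1+/+KRasLA1 CS replicate 3 lay among the day 2 lungs. Cd3d fell by 0.47 ± 0.139 (adjusted p = 0.0403) at day 2. At day 60 its difference was 0.49 ± 0.139 (adjusted p = 0.0701), which was not called, and was 0.57 (adjusted p = 0.0143) without that lung. It also passed without BLT1-/- CS replicate 3 of day 2 (0.0434), with quantile normalization (0.0379) and with array weights (0.00764). The day 2 call was lost without either day 2 pool (-0.56, adjusted p = 0.216, and -0.39, 0.248), with the day 2 arrays alone (adjusted p = 0.0517) and without 6 single CS lungs (adjusted p from 0.0528 to 0.0764).

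Cd4 and Cd8a separate helper from cytotoxic T cells. Cd4 (probe set 10547894) at day 2 was at 7.97, 7.84 and 7.98 in BLT1+/+ CS lungs against 8.17 in the pool, and at 8.02, 7.91 and 7.69 in BLT1-/- CS lungs against 8.16. At day 60 it was at 8.82, 8.73 and 8.44 in BLT1+/+KRasLA1 CS lungs against 7.94, and at 8.67, 8.49 and 9.0 in BLT1-/-KRasLA1 CS lungs against 7.92. The 6 day 60 CS lungs stood clear of the other 10 arrays, which all lay between 7.69 and 8.17. The day 2 difference of -0.26 ± 0.137 was not called (adjusted p = 0.258, 95% interval -0.56 to 0.03), and the day 60 rise was 0.76 ± 0.137 (1.70-fold, adjusted p = 0.00593). Without the BLT1-/-KRasLA1 pool (0.72, adjusted p = 0.132) or the BLT1+/+KRasLA1 pool (0.80, 0.0694) the rise did not pass.

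Cd8a, the alpha chain of the CD8 coreceptor, was called at day 2 and not at day 60, while Cd4 was called at day 60 and not at day 2. At day 2 (probe set 10538993) it was at 8.31, 7.99 and 7.92 in BLT1+/+ CS lungs against 8.50, and at 8.19, 7.89 and 7.78 in BLT1-/- CS lungs against 8.57. At day 60 it was at 8.24, 8.34 and 8.12 in BLT1+/+KRasLA1 CS lungs against 8.14, and at 8.58, 8.42 and 8.56 in BLT1-/-KRasLA1 CS lungs against 8.19. The BLT1+/+KRasLA1 CS lungs of day 60 lay on both sides of their pool. Cd8a fell by 0.52 ± 0.123 (adjusted p = 0.0149) at day 2, and its day 60 difference of 0.22 ± 0.123 was not called (adjusted p = 0.508, 95% interval -0.05 to 0.48). The day 2 fall was lost when the BLT1-/- pool (-0.42, adjusted p = 0.321) or the BLT1+/+ pool (-0.62, 0.0522) was left out.

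The change of Cd4 relative to Cd8a was described by the difference of their log2 levels within each array, a measure chosen after the values were seen and given no test. Its absolute size has no meaning across probe sets, and only its shifts can be read. It had a median of -0.12 in the day 2 CS lungs (from -0.34 to 0.06, n = 6) and of 0.35 in the day 60 CS lungs (from 0.07 to 0.58, n = 6). In the pools it was between -0.41 and -0.32 at day 2 and between -0.27 and -0.20 at day 60. All 6 day 60 CS lungs lay above the other 10 arrays, but by a narrow margin over the nearest day 2 CS lung. Whether the shift lies in T cells was not tested, and 5 of 11 macrophage and monocyte markers also rose at day 60.

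Cd28, the receptor for the costimulatory ligands CD80 and CD86, had levels (probe set 10346783) of 8.01, 7.66 and 7.79 in BLT1+/+ CS lungs at day 2 (pool 8.31) and of 7.99, 7.91 and 8.07 in BLT1-/- CS lungs (pool 8.34). At day 60 the levels were 8.51, 8.51 and 8.37 in BLT1+/+KRasLA1 CS lungs (pool 8.02) and 8.63, 8.78 and 8.89 in BLT1-/-KRasLA1 CS lungs (pool 8.05). Neither day's CS lungs overlapped their pools. Cd28 fell by 0.42 ± 0.102 (adjusted p = 0.0162) at day 2 and rose by 0.58 ± 0.102 (adjusted p = 0.00531) at day 60. The fall was lost without either day 2 pool (-0.49, adjusted p = 0.132, and -0.35, 0.162) and the rise without the BLT1-/-KRasLA1 pool (0.44, 0.248).

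Il7r encodes the alpha chain of the receptor for IL-7, on which naive and memory T cells depend for survival. Its day 2 levels (probe set 10427628) were 9.79, 9.80 and 10.07 in BLT1+/+ CS lungs against 10.09, and 9.65, 9.64 and 9.85 in BLT1-/- CS lungs against 10.01. Its day 60 levels were 11.23, 10.77 and 10.18 in BLT1+/+KRasLA1 CS lungs against 9.46, and 10.77, 10.68 and 11.12 in BLT1-/-KRasLA1 CS lungs against 9.33. Each CS lung was below its own pool at day 2 and above it at day 60, and the day 60 pools were the 2 lowest of the 16 arrays. The day 2 difference of -0.25 ± 0.199 was not called (adjusted p = 0.510, 95% interval -0.68 to 0.18). The day 60 rise of 1.40 ± 0.199 (2.63-fold, adjusted p = 0.00140) was the largest of the 9 genes and did not pass without the BLT1-/-KRasLA1 pool (1.26, adjusted p = 0.0625). The SD of 0.528 in the BLT1+/+KRasLA1 CS lungs was also the largest of any gene and CS group, against 0.0357 to that value over all of them.

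Slamf6, a self-binding receptor of the SLAM family that acts through the adaptor SAP, had the smallest standard error of the 9 genes. It was at 8.41, 8.3 and 8.25 in BLT1+/+ CS lungs at day 2 (probe set 10351691; pool 9.03) and at 8.12, 8.05 and 8.14 in BLT1-/- CS lungs (pool 8.77). At day 60 it was at 9.54, 9.36 and 9.43 in BLT1+/+KRasLA1 CS lungs (pool 8.66) and at 9.59, 9.57 and 9.86 in BLT1-/-KRasLA1 CS lungs (pool 8.49). From low to high the arrays ran in 3 separate blocks, the day 2 CS lungs, the 4 pools and the day 60 CS lungs. Slamf6 fell by 0.69 ± 0.0917 (adjusted p = 0.000574) and rose by 0.98 ± 0.0917 (adjusted p = 7.43e-05). It was called at both days without any single pool, and in each of the 4 genotype comparisons.

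Satb1, a chromatin organiser needed for T cell development that marks naive T cells, was called at day 2 and not at day 60. At day 2 (probe set 10451763) it was at 9.24, 8.90 and 8.66 in BLT1+/+ CS lungs and at 9.24, 9.08 and 8.73 in BLT1-/- CS lungs, with both pools at 9.82. At day 60 it was at 9.11, 9.12 and 9.19 in BLT1+/+KRasLA1 CS lungs against 9.11, and at 9.47, 9.44 and 9.58 in BLT1-/-KRasLA1 CS lungs against 8.70. The day 2 pools were the highest arrays, and the BLT1+/+KRasLA1 CS lungs were level with their pool. Satb1 fell by 0.84 ± 0.140 (1.79-fold, adjusted p = 0.00209) at day 2, and its day 60 difference of 0.41 ± 0.140 was not called (adjusted p = 0.150). It passed at day 60 with array weights (adjusted p = 0.0390), with the day 60 arrays alone (0.0157) and with the replicate block (0.00852), and missed at day 2 without the BLT1-/- pool (-0.88, adjusted p = 0.0502).

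**Figure D2:**
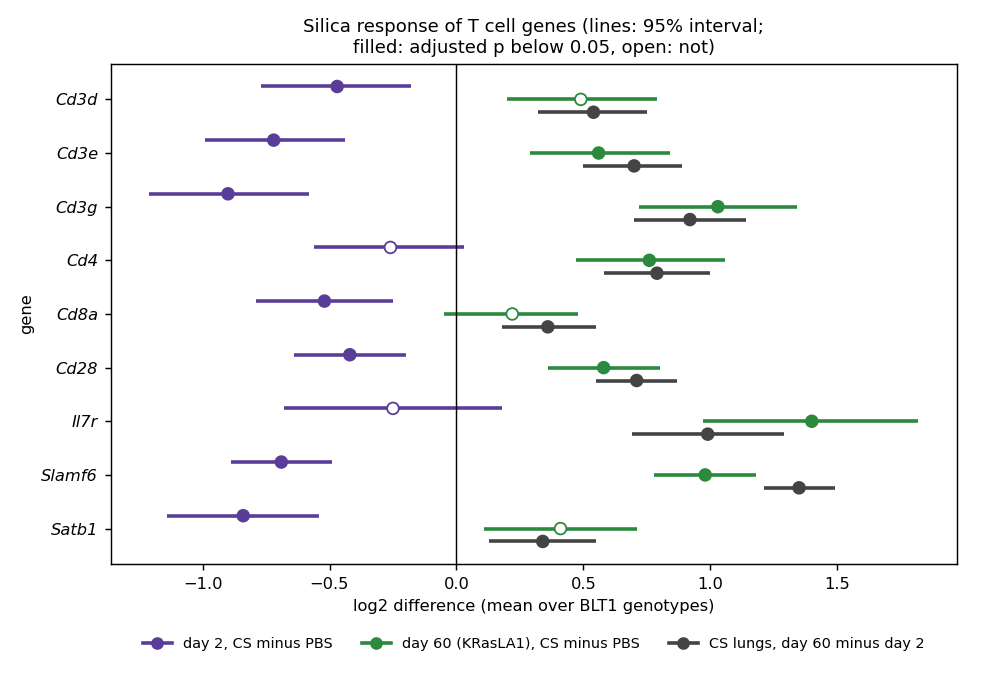
Log2 difference of each T cell gene, averaged over BLT1 genotypes, with its 95% interval from limma: CS lungs minus PBS pools at day 2 (purple) and day 60 (green), and day 60 minus day 2 CS lungs (grey); filled points have an adjusted p below 0.05. All 9 purple points lie left of 0 and all 9 green and grey points right of it, with Cd4 and Il7r open at day 2 and Cd3d, Cd8a and Satb1 open at day 60.

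The CS minus PBS difference changed between the days, which also differ in KRasLA1 and in male RNA in the pools. The day 60 minus day 2 difference of the mean responses was called higher for 9 of 9 genes (1.70% of all genes were), with a median of 1.26 against -0.02 over all genes. It was 1.93 ± 0.206 for Cd3g (adjusted p = 0.000803), 1.67 ± 0.130 for Slamf6 (0.000123), 1.64 for Il7r (0.00731), 1.28 for Cd3e (0.00302), 1.26 for Satb1 (0.00505), 1.03 for Cd4 (0.0126), 1.00 for Cd28 (0.00305), 0.97 for Cd3d (0.0205) and 0.74 for Cd8a (0.0455). Each pool entered this difference, and so did the change of the pools between the days. From day 2 to day 60, Satb1 changed by -0.91 in the pools and by 0.34 in the CS lungs. Cd3g changed by -1.01 and 0.92, and Slamf6 by -0.33 and 1.35. With a pool left out, the genes called numbered 2 of 9 for the BLT1-/-KRasLA1 pool, 4 for BLT1-/-, 7 for BLT1+/+ and 8 for BLT1+/+KRasLA1, and the Cd8a call was also lost without 9 of the 12 CS lungs (adjusted p from 0.0552 to 0.0787), BLT1+/+KRasLA1 CS replicate 2 among them (0.0715).

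Both day 60 pools lay below both day 2 pools in 9 of 9 genes, as they did for 17.6% of all genes. Cd3g was lower in the day 60 pools by 1.01 ± 0.178 (adjusted p = 0.0302) and Satb1 by 0.91 ± 0.171 (adjusted p = 0.0396), so 2 of 9 were called lower (0.231% of all genes were), and the others differed by -0.24 to -0.65 with adjusted p from 0.157 to 0.713. Both calls were lost with any 1 of the 4 pools or BLT1+/+ CS replicate 2 of day 2 left out, and the Satb1 call also without BLT1-/- CS replicate 2 of day 2, BLT1-/-KRasLA1 CS replicate 2 or 3, or BLT1+/+KRasLA1 CS replicate 1. Eif2s3y was at 9.68 and 9.04 in the day 60 pools and at 4.27 and 4.33 in the day 2 pools. Day, KRasLA1 and the male RNA in the pools go together here, and their parts cannot be told apart.

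The CS lungs alone give the comparison with the most replicates, 6 against 6, and need no pool. All 9 genes were higher in day 60 than in day 2 CS lungs, where 12.2% of all genes were called higher. The difference was 1.35 ± 0.0648 for Slamf6 (2.54-fold, adjusted p = 1.25e-07), 0.99 ± 0.141 for Il7r (1.99-fold, 0.000194), 0.92 ± 0.103 for Cd3g (1.89-fold, 3.34e-05), 0.79 for Cd4 (6.46e-05), 0.71 for Cd28 (1.73e-05) and 0.70 for Cd3e (0.000107). It was smaller for Cd3d (0.54, adjusted p = 0.00122), Cd8a (0.36, 0.00717) and Satb1 (0.34, 0.0206). The 6 larger ones had no overlap between the days, as 6.47% of all genes did in this direction, while Cd3d, Cd8a and Satb1 overlapped. BLT1+/+KRasLA1 CS replicate 2, the CS lung with high Eif2s3y, changed none of these calls when left out, and leaving out BLT1-/-KRasLA1 CS replicate 3 cost that of Satb1 (0.32, adjusted p = 0.0515).

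Each genotype was then set against its own pool. In BLT1+/+ lungs at day 2, Cd3g (-0.93, adjusted p = 0.0488), Satb1 (-0.88, 0.0497) and Slamf6 (-0.71, 0.0212) fell, 3 of 9 against 0.311% of all genes. In BLT1-/- lungs at day 2, Cd3e (-0.93, adjusted p = 0.0118), Cd3g (-0.87, 0.0262), Satb1 (-0.80, 0.0302) and Slamf6 (-0.67, 0.0113) fell, 4 of 9 against 1.40%. All 3 lungs of each genotype were below their pool in all 9 genes, an order whose share over all genes was not counted. With the replicate block of day 2, where same-numbered lungs deviated together, Cd8a also fell in BLT1-/- lungs (-0.62, adjusted p = 0.00706 in place of 0.0520), with an error that leaves out how the unnumbered pools vary. These counts turned on single libraries. The BLT1+/+ count was 0 without BLT1+/+ CS replicate 2 or 3, and 1 without BLT1-/- CS replicate 2, any BLT1-/-KRasLA1 CS lung or BLT1+/+KRasLA1 CS replicate 1 or 2, and the BLT1-/- count was 2 without BLT1-/- CS replicate 2 or 3.

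At day 60, Slamf6 (0.78, adjusted p = 0.0156) rose in BLT1+/+KRasLA1 lungs, 1 of 9 against 0.687% of all genes. In BLT1-/-KRasLA1 lungs Il7r (1.53, 2.89-fold, adjusted p = 0.0227), Cd3g (1.22, 0.0137), Slamf6 (1.18, 0.000710) and Cd28 (0.72, 0.0322) rose, 4 of 9 against 1.10%. The other differences ran from 0.03 (Satb1) to 1.26 (Il7r) in BLT1+/+KRasLA1 and from 0.33 (Cd8a) to 0.80 (Cd4 and Satb1) in BLT1-/-KRasLA1 lungs, and none was called. The BLT1+/+KRasLA1 count was 0 without its CS replicate 1 and 4 without its CS replicate 3, and the BLT1-/-KRasLA1 count was 1 without its CS replicate 3.

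That more genes were called in one genotype does not show that the genotypes differ. The BLT1 by silica interaction was called for 0 of 9 genes at day 2 and 0 of 9 at day 60 by limma (0% of all genes at either day). An unadjusted limma p below 0.05 was reached by 0 of the 9 at day 2 and 2 at day 60. Over all 19938 genes, 896 reached it at day 2 and 396 at day 60. At day 60 all 9 interactions were above 0, the largest for Satb1 at 0.77 ± 0.279 (95% interval 0.17 to 1.37, adjusted p = 1) and Slamf6 at 0.40 ± 0.183. For Il7r the interval ran from -0.59 to 1.13.

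Among the CS lungs alone, BLT1-/- and BLT1+/+ lungs gave 0 of 9 calls by limma at day 2 (0.0201% of all genes were called) and 0 of 9 at day 60 (0.0401%). An unadjusted limma p below 0.05 was reached by 1 of the 9 at day 2 and 7 at day 60. Over all 19938 genes, 1735 reached it at day 2 and 810 at day 60. At day 60 all 9 genes were higher in the BLT1-/-KRasLA1 lungs, with a median of 0.30 against 0.01 over all genes. Cd3d differed by 0.54 ± 0.139 (95% interval 0.24 to 0.84), Satb1 by 0.36 ± 0.140, Cd3g by 0.33 ± 0.145, Cd3e by 0.31 ± 0.129 and Cd28 by 0.30 ± 0.102, each with an adjusted p of 0.967. Cd8a (0.28), Slamf6 (0.23), Il7r (0.13) and Cd4 (0.06, 95% interval -0.24 to 0.35) differed less. In 6 of 9 genes, Cd3d, Cd3g, Cd8a, Cd28, Satb1 and Slamf6, the 3 lungs of each genotype did not overlap, as held for 4.58% of all genes in this direction. At day 2 the differences ran from -0.22 ± 0.0917 (Slamf6, the lone gene with no overlap, as 6.13% of genes in that direction) to 0.17 (Cd28).

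**Figure D3:**
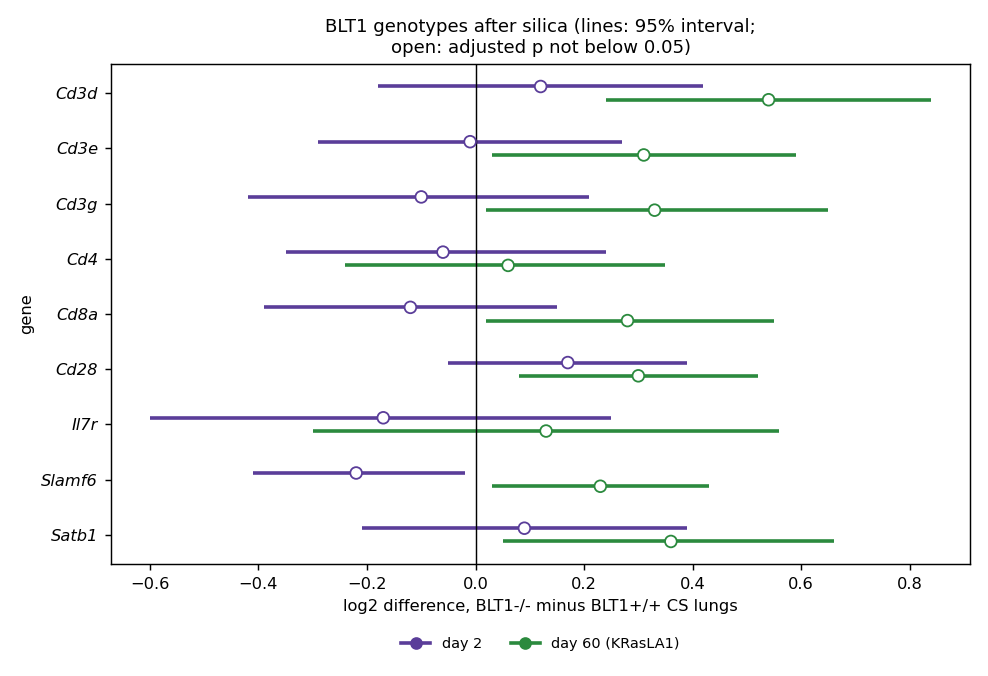
Log2 difference between BLT1-/- and BLT1+/+ CS lungs for each T cell gene, with its 95% interval, at day 2 (purple) and at day 60 in KRasLA1 lungs (green), 3 lungs against 3. The green points all lie right of 0, from 0.06 for Cd4 to 0.54 for Cd3d, and no point had an adjusted p below 0.05.

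Over the 16 arrays the 36 pairs among the 9 genes had Pearson correlations from 0.371 (Il7r with Satb1) to 0.931 (Cd4 with Slamf6), with a median of 0.823. These are descriptions across arrays that differ in group and share 1 normalization. With the group means taken out, over the 12 CS lungs, the median was 0.427. Within groups Cd8a followed Cd3g (0.923) and Satb1 (0.811), and Cd4 followed Cd3e (0.853), while Il7r with Cd8a was at 0.0333 and Il7r with Satb1 at -0.298. These values keep any effect of the replicate number, and same-numbered day 2 lungs deviated together. In both day 2 genotypes, CS replicate 1 was the highest and CS replicate 3 the lowest lung for Cd3g, Cd8a and Satb1, so the shared number enters these correlations, and its part was not tested.

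The genes whose level most resembled that of Cd3e over the 16 arrays were Cd247 (Pearson correlation 0.975), which encodes the zeta chain of the receptor complex, Ptprcap (0.967), Skap1 (0.963), Thy1 (0.962) and Fam78a (0.953). For Cd4 they were Cd6 (0.964), Cd5 (0.964), Psap (0.961), Sh2d2a (0.959) and Laptm5 (0.958). For Cd8a they were Septin6 (0.943), Skap1 (0.936), Lef1 (0.93), Zfp831 (0.912) and Cd8b1 (0.905), the last encoding the other chain of CD8. For Il7r they were Lpxn (0.975), Cyth4 (0.954), Pik3r5 (0.947), Pik3cg (0.944) and Nckap1l (0.942). The lists of Cd4, Cd8a and Il7r shared no gene, and Skap1 stood in those of Cd3e and Cd8a.

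Other genes of the pathway were read from lists that leave the 9 genes out. Over all genes, 4.37% fell and 8.03% rose at day 2, and 0.677% fell and 3.35% rose at day 60. Of 26 measured genes of the receptor complex and its proximal signalling, 17 fell and 0 rose at day 2 (median -0.51), and 14 rose and 0 fell at day 60 (median 0.45). Between the days, 24 of 26 were higher in day 60 CS lungs (12.2% of all genes were). The phosphatase gene Ptpn22 (-0.56 at day 2, adjusted p = 0.00312; 0.71 at day 60, 0.00136), the guanine nucleotide exchange factor Rasgrp1 (-0.72, 0.00571; 0.74, 0.00908), Tespa1 (-0.59, 0.00920; 0.73, 0.00528) and the leukocyte phosphatase CD45, encoded by Ptprc (-0.57, 0.00256; 0.43, 0.0237), did both. Of the 18 T cell transcription factors, 7 fell at day 2 and 4 rose at day 60. Ikzf3 was at -1.10 (adjusted p = 0.00225) and 0.48 (0.230), and Tbx21, the factor of type 1 helper T cells, at -0.46 (0.00362) and 0.30 (0.0733).

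Genes of activated T cells held calls in both directions at day 2. Of 18, 3 fell and 2 rose at day 2 (median -0.05), and 13 rose and 0 fell at day 60 (median 0.60). Il2ra, the IL-2 receptor alpha chain, was at 0.07 at day 2 (adjusted p = 0.827) and rose by 1.40 at day 60 (0.000100), and the costimulator Icos was at -0.15 (0.458) and 1.07 (0.000163). Cd69, which holds lymphocytes in tissue, fell by 0.76 at day 2 (0.00571) and rose by 1.03 at day 60 (0.00163), against day 60 pools that were lower by 1.16 (0.0230). Of 9 genes of naive, recirculating T cells, 3 fell at day 2 (median -0.42) and 1 rose at day 60 (median 0.11). That one was Ccr7, which guides cells to lymph nodes (-0.58, adjusted p = 0.00350, and 0.59, 0.00619).

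Of 9 ligands for CD28 family and TNF family costimulatory receptors, 2 rose at day 2 and 4 at day 60. Cd86, the CD28 ligand, was at 0.32 (adjusted p = 0.130) and 0.87 (0.00164), and Pdcd1lg2 at 0.27 (0.486) and 1.29 (0.00332). Tnfsf9 went the other way, at 0.88 (0.00302) and 0.03 (0.967). Of 9 partners of the IL-7 receptor, 1 rose and 1 fell at day 2, and 0 were called at day 60, where Crlf2 was at 0.29 (adjusted p = 0.0783) and the survival gene Bcl2 at 0.18 (0.319). Of 10 SLAM family genes and adaptors, 2 fell at day 2 and 7 rose at day 60. Slamf7 was at -0.10 (0.798) and 1.64 (0.000288), Ly9 at -0.42 (0.0673) and 1.14 (0.000517), and Sh2d1a, which encodes SAP, at -0.48 (0.0138) and 0.51 (0.0196).

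The list counts depended on the pools. Over all genes, 0.311% were called lower in BLT1+/+ and 1.40% in BLT1-/- lungs at day 2. At day 60, 0.687% were called higher in BLT1+/+KRasLA1 and 1.10% in BLT1-/-KRasLA1 lungs. More calls in 1 genotype therefore do not show that the genotypes differ, and the interaction was called for 0% of all genes at either day. With each genotype set against its own pool, which is what a mean rests on when the other pool is left out, the receptor complex and signalling list had 1 of 26 genes called lower in BLT1+/+ and 10 in BLT1-/- lungs at day 2. The same list had 0 called higher at day 60 in BLT1+/+KRasLA1 and 6 in BLT1-/-KRasLA1 lungs. Of the 18 activation genes, 5 were called higher in BLT1+/+KRasLA1 and 7 in BLT1-/-KRasLA1 lungs, and of the 10 SLAM family genes 2 and 5. Of the 18 transcription factors, 1 was called lower in BLT1+/+ and 3 in BLT1-/- lungs at day 2, and 1 was called higher in each genotype at day 60. Of the 11 B cell markers, 5 were called lower in BLT1+/+ and 7 in BLT1-/- lungs at day 2, and 1 was called higher in each genotype at day 60. Of the 11 NK cell markers, 3 and 5 were called lower at day 2. Of the 11 macrophage and monocyte markers, 2 were called higher in BLT1+/+KRasLA1 and 4 in BLT1-/-KRasLA1 lungs. Of the 10 dendritic cell markers, 2 were called lower in each genotype at day 2, and 1 and 3 were called higher at day 60. Of the 9 ligands, 0 and 2 were called higher at day 2, and 0 and 1 at day 60. Each other list had 2 or fewer called in any 1 genotype.

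Genes of other cells moved with the T cell genes, and their part in the T cell results was not tested. Of 11 B cell markers, 10 fell at day 2 (median -1.05) and 4 rose at day 60 (median 0.67). All 11 markers were higher in day 60 than in day 2 CS lungs (12.2% of all genes were). Their mean level was 8.43 to 9.19 in the day 2 CS lungs against 9.68 and 9.81 in the pools, and 9.80 to 10.31 in the day 60 CS lungs against 9.25 and 9.38. Of 11 NK cell markers, 8 fell at day 2 (median -0.95) and 0 were called at day 60 (median 0.10), with Nkg7 at -1.13 (adjusted p = 0.00210) and 0.37 (0.431). Their mean level was 7.18 to 7.61 in day 2 CS lungs against 8.19 and 8.25 in the pools, and 7.73 to 8.16 at day 60 against 8.0 and 7.71.

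Of 10 dendritic cell markers, which include those of the CD8-bearing class, 5 fell at day 2, and 4 rose and 1 fell at day 60. Xcr1 was at -0.56 (adjusted p = 0.00705) and 0.55 (0.0150), and Itgae, an integrin that tissue-resident T cells carry too, at -0.32 (0.0388) and 0.63 (0.00169). Their mean level was 7.86 to 8.11 in day 2 CS lungs (pools 8.29 and 8.44) and 8.36 to 8.61 in day 60 CS lungs (pools 8.26 and 8.29). Of 11 macrophage and monocyte markers, 2 rose and 2 fell at day 2, and 5 rose at day 60, with mean levels of 10.30 to 10.58 (pools 10.32 and 10.35) and 10.69 to 11 (pools 10.31 and 10.36).

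Of 8 markers of group 2 innate lymphoid cells, which also use Il7r, 1 rose at each day, and at day 60 it was Klrg1 (1.10, adjusted p = 0.000176), a receptor that effector T cells and NK cells carry as well. Of 6 gamma delta T cell markers, 1 fell at day 2 and 0 were called at day 60. Of 12 thymus genes, 2 fell at day 2 and 1 rose at day 60. Both days include Themis (-0.73, 0.0103, and 0.69, 0.0275), which mature T cells express too and which the receptor signalling list holds as well. Of 8 genes of lymph node stroma and vessels, 2 rose and 1 fell at day 2 and 2 rose at day 60. Cxcl13, which attracts B cells and follicular T cells, rose by 2.71 at day 2 (6.52-fold, adjusted p = 0.000117) and by 1.10 at day 60 (0.0358). Its response difference of -1.60 (adjusted p = 0.0461) had the opposite sign to those of the 9 T cell genes. From day 2 to day 60, Cxcl13 changed by 1.27 in the pools and by -0.33 in the CS lungs, neither of them called. Ccl19, an attractant of naive T cells, was at 0.59 (0.0460) and 0.90 (0.0105). Cr2, a complement receptor of B cells and follicular dendritic cells that the B cell list holds too, fell by 1.05 at day 2 (0.00819) and was at 0.67 at day 60 (0.143).

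**Figure D4:**
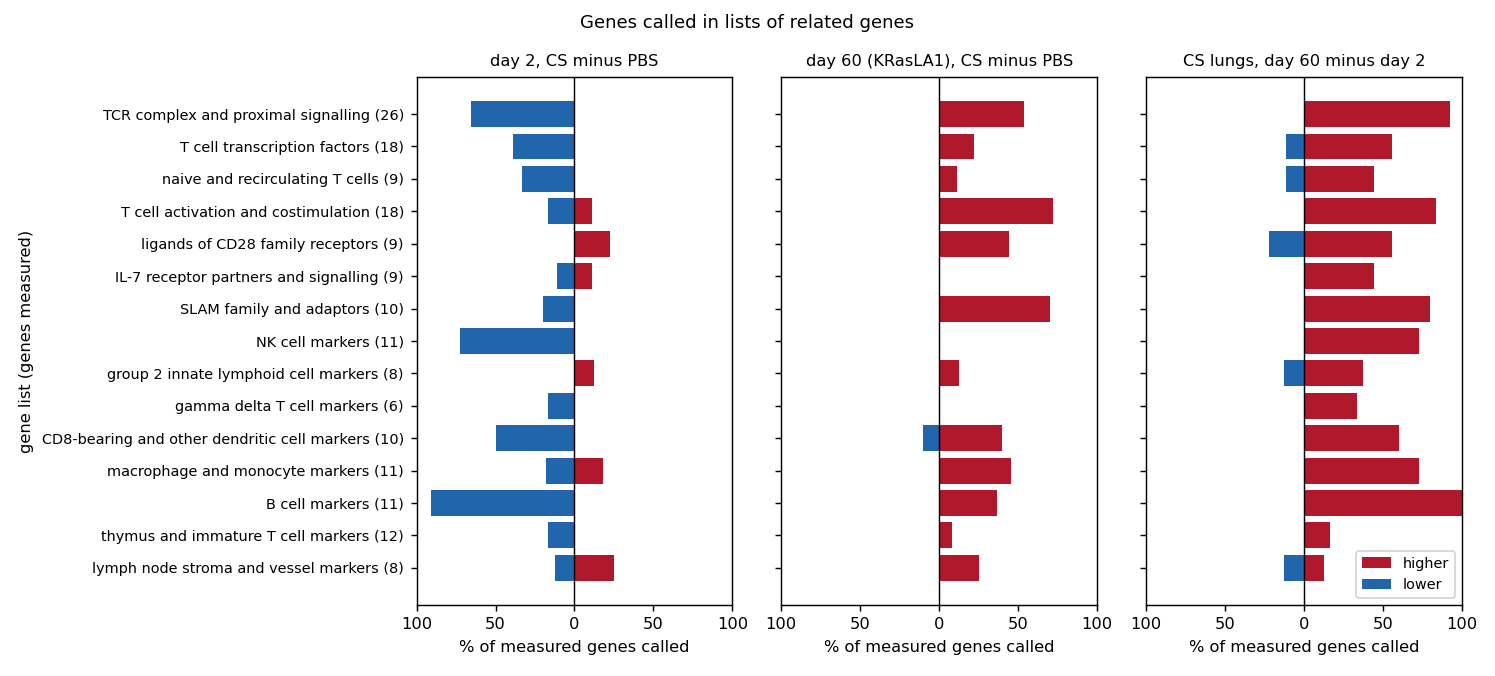
Share of measured genes called higher (red, right) or lower (blue, left) in 15 gene lists, for the silica response at day 2, the response at day 60 in KRasLA1 lungs, and day 60 against day 2 CS lungs; the number of measured genes is in parentheses and the 9 T cell genes described above are left out. Of the receptor complex and signalling list, 17 of 26 fell at day 2 and 14 rose at day 60, while 8 of 11 NK cell markers fell at day 2 and 0 were called at day 60.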

How the data were processed

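Per the submitters' processing notes, the authors normalized the 16 arrays by RMA, using Partek 6.6. The deposited values are log2 levels per probe set. No source used here names the array design or a genome build. RMA gives arrays 1 distribution, so a change in total RNA cannot be seen, and it compresses dim levels. Of 35556 probe sets, 21789 had 1 gene symbol, 1621 several and 12146 none. Only the first were used, with 1 probe set per gene (the highest mean over all arrays), which left 19938 genes. No array was a copy of another.

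Group means of all 16 arrays were fitted with limma 3.58.1 in R 4.3.3 (lmFit, eBayes with a trend, two-sided), with 8 residual degrees of freedom, all from CS lungs, and 5.4 prior ones. Each PBS pool, a lone array, borrowed the spread of the CS lungs. Errors are standard errors unless called SD, and precision is limited by the number of arrays. The 13 comparisons were each adjusted over 19938 genes. The fit was tested on simulated data, in which pools were given the spread of the CS lungs, so how pools vary was not tested. The 10 genes and the gene lists were chosen with earlier results of these data known. Named from each list were up to 4 genes with the smallest p for the day 60 minus day 2 response, and 5 genes most like each of Cd3e, Cd4, Cd8a and Il7r. Some genes stand in more than 1 list.

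Same-numbered CS lungs of both genotypes deviated together at day 2 (correlations over genes of 0.426, 0.2 and 0.345) and not at day 60 (0.0914, 0.00965 and 0.0552). The numbers come from the sample titles. The alternatives were quantile normalization, no dim genes, array weights, 1 day alone, mean over probe sets, the replicate block, both pools as control and each array left out.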

Additional observations from a re-analysis of the deposited data

Results flagged for a closer look

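The day 60 minus day 2 difference of the silica responses was called higher in 9 of 9 T cell genes (1.70% of all genes were). It was 0.97 for Cd3d, 1.28 for Cd3e, 1.93 for Cd3g, 1.03 for Cd4, 0.74 for Cd8a, 1.64 for Il7r, 1.00 for Cd28, 1.26 for Satb1 and 1.67 for Slamf6, each on the log2 scale with limma and positive because the day 60 response was the higher. The pools of the days differ too, and fewer genes were called with any single pool left out, as given above.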

How the results depend on the processing

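No called value of a T cell gene changed direction under any alternative. The counts of the 9 genes called that moved by over 1.5 times were, for BLT1+/+ lungs at day 2 (3), 1 with quantile normalization, 1 with the day 2 arrays alone and 5 against both pools. For BLT1-/- lungs at day 2 (4) the count was 2 with the day 2 arrays alone. For BLT1+/+KRasLA1 lungs (1) it was 5 with array weights, 0 with the day 60 arrays alone, 2 with the replicate block and 4 against both pools. For BLT1-/-KRasLA1 lungs (4) it was 7 with array weights and 7 against both pools. With 1 array left out, the counts ran from 2 to 7 for the mean day 2 response, from 1 to 7 for the mean day 60 response, from 2 to 9 for their difference, from 0 to 4 in BLT1+/+, 2 to 5 in BLT1-/-, 0 to 4 in BLT1+/+KRasLA1 and 1 to 5 in BLT1-/-KRasLA1 lungs, from 0 to 2 between the pools of the days and from 8 to 9 between the CS lungs of the days. The comparisons of BLT1 genotypes among CS lungs and the interactions gave 0 of 9 in each fit that was run. The replicate block errors leave out how the pools vary. Beside the call of Cd8a given above, the day 2 replicate block, added after the data were seen, changed no call. Day 60 has no pairing by number. The response of 1 genotype has no value without its own pool. Counts over all genes moved as well: the mean day 60 response gave 802 genes and 1729 with array weights, the mean day 2 response 2473 and 1589 with the day 2 arrays alone, the difference of the responses 469, 875 with array weights and 911 with the replicate block, and the pools of the days 79, 335 and 202. With array weights, the day alone, the replicate block and both pools in turn, BLT1-/- lungs at day 2 gave 1315, 2647, 425, 2277 and 2642 genes in all, and BLT1+/+KRasLA1 lungs 152, 676, 59, 231 and 619. BLT1+/+ lungs at day 2 gave 232, 93 with the day alone, 730 with the replicate block and 1060 against both pools, and BLT1-/-KRasLA1 lungs 234, 876 with array weights and 514 against both pools. Between BLT1 genotypes the CS lungs gave 4 genes at day 2, 7 with quantile normalization, 2 with the day alone and 21 with the day 2 replicate block, and 8 at day 60, 14 with array weights and 3 with the day alone. With 1 array left out, counts over all genes ran from 231 to 3099 for the mean day 2 response, 152 to 1040 for the mean day 60 response, 39 to 716 for their difference, 65 to 685 in BLT1+/+, 697 to 1629 in BLT1-/-, 43 to 477 in BLT1+/+KRasLA1 and 69 to 432 in BLT1-/-KRasLA1 lungs, and 1 to 103 between the pools. The shares of all genes printed beside the counts of the 9 genes move with these. The causes were not tested.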
